A study of Mus musculus with 16 samples.

Results

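MicroRNAs (miRNAs) were counted in 8 of the 16 libraries of this series, 4 from neurons that received an shRNA and 4 from neurons that received the empty vector. The libraries were chosen by their labels alone, shRNA replicates 1 to 4 and Empty_Vector replicates 1 to 4, so no measured value entered the choice. All of them are small RNA libraries from primary cultures of perinatal mouse forebrain neurons, and both groups were transduced with a lentiviral vector. The comparison asks which miRNAs differ in level when the vector expresses a short hairpin RNA. The other 8 libraries came from neurons with the same hairpin carrying 2 point mutations (shRNA_2bp) or 5 point mutations (shRNA_5bp). The hairpin's sequence, its target, its promoter and the share of cells transduced are not given in the sources used here. A single hairpin stands against a vector without one, so an effect of this sequence and an effect of carrying any hairpin cannot be told apart from these 8 libraries. The labels do not say whether the replicates came from separate cultures or animals, so the p-values measure only the spread between these libraries, which may be technical.

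A primary miRNA transcript folds into hairpins that Drosha cuts in the nucleus. Exportin-5 carries each hairpin to the cytoplasm, where Dicer cuts off the loop. A short hairpin RNA made from a lentivirus shares exportin-5 and Dicer with the miRNAs. One strand of the remaining duplex, from the 5p or the 3p arm of the hairpin, is usually kept in an Argonaute protein and the other is lost. The seed of a miRNA, bases 2 to 8 from its 5′ end, does most of the pairing with target mRNAs, and miRNAs that share a seed form a family with overlapping targets.

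The miRNAs on which the results turn are shown with the seed in capitals, as RefSeq gives the mature sequence on GRCm38.p6. Of the 483 miRNAs tested, 427 had a sequence there. The miR-7 family is shown with the opposite arms of miR-7a, because the 5p arms rose and those arms did not pass the test. Over 23 bases miR-7a-5p and miR-7b-5p differ by the substitution A10U, counted from 1 at the 5′ end with the base of miR-7a-5p first, and miR-7b-5p is 1 base longer. Reads of the pair are therefore nearly identical, and how counts were divided between them is uncertain.
miR-7a-5p: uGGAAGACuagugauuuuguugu
miR-7b-5p: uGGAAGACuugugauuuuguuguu
miR-7a-1-3p: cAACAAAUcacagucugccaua
miR-7a-2-3p: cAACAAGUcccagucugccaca

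Families follow in which members with the same seed moved together or apart. MiR-132-3p and miR-212-3p differ at 5 of 22 bases, all outside the seed. MiR-672-5p and miR-377-5p come from different chromosomes and share a seed. The 4 members of the miR-181 family and the 3 of the miR-29 family have the same seed within each family.
miR-132-3p: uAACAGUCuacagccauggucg
miR-212-3p: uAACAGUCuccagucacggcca
miR-672-5p: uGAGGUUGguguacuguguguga
miR-377-5p: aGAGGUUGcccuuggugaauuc
miR-34b-3p: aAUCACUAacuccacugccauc
miR-34c-3p: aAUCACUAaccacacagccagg
miR-181a-5p: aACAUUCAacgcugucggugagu
miR-181b-5p: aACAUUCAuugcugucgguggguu
miR-181c-5p: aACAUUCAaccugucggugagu
miR-181d-5p: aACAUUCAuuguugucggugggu
miR-29a-3p: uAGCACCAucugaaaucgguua
miR-29b-3p: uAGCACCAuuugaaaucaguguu
miR-29c-3p: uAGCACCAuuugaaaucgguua

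The last set holds single miRNAs that are described because of their change, their abundance or their place in the genome.
miR-431-5p: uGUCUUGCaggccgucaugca
miR-129-5p: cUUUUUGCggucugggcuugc
miR-129-2-3p: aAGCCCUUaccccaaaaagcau
miR-155-5p: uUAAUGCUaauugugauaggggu
miR-128-3p: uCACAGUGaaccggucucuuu
miR-370-3p: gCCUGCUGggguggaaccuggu
miR-379-5p: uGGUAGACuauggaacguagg

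The libraries held 2760894 to 11139163 counts with the empty vector and 5304461 to 8061785 with shRNA, and these ranges overlap. Of 1978 names in the count table, 483 passed a filter on low counts, and no library had less than 99.941% of its counts on them. Levels are given as CPM, counts scaled to a common library size by edgeR's TMM factors, with mean ± SD over 4 libraries. Changes are log2 fold changes of shRNA against the empty vector ± SE, tested with edgeR's quasi-likelihood test. This SE is the absolute change divided by the square root of the test's F statistic, and the 95% intervals are built from it. A miRNA is said to have risen or fallen where the Benjamini-Hochberg adjusted p over the 483 miRNAs was below 0.05. By that rule 34.8% of the tested miRNAs changed, 19.7% rising and 15.1% falling, and in 32.9% the 2 groups did not overlap, and counts of members are read against these shares. The tested miRNAs had a median change of 0.04, which became 0.18 when libraries were scaled by their totals alone. Called rises were then 149 instead of 95 and called falls 44 instead of 73.

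The neuronal identity of the cultures was checked on 9 neuron markers, all of which passed the filter. Their summed level was 515687 to 550013 CPM with the empty vector and 405337 to 457209 CPM with shRNA, and most of it was miR-128-3p. Of these 9, 3 rose (miR-129-5p, miR-124-3p and miR-153-3p) and 2 fell (miR-128-3p and miR-218-5p), where 34.8% of all miRNAs changed. The summed levels of markers of other cells were lower, though sums of different miRNAs do not measure shares of cells. The summed level of the 2 tested oligodendrocyte markers was 119 to 149.6 CPM and 115 to 131.6 CPM, and that of the 4 tested vessel and fibroblast markers 678 to 788 CPM and 639 to 726 CPM, with the empty vector and with shRNA. None of these 6 passed edgeR's test, nor did the 1 tested erythroid marker. At an unadjusted p below 0.05, 1 oligodendrocyte marker was higher, and with DESeq2 1 vessel marker and the erythroid marker fell. Astroglia-leaning markers summed to 1797 to 2001 CPM with the empty vector and 2003 to 2201 CPM with shRNA. Of the 5 tested, 2 rose, miR-21a-5p (0.30 ± 0.069) and miR-31-5p (0.81 ± 0.196), a share of 40% against 34.8% over all miRNAs. MiR-22-3p (0.05), miR-143-3p (0.15) and miR-365-3p (-0.36) did not pass edgeR's test. With library totals alone miR-22-3p stood at 0.19 (adjusted p = 0.0116). In bulk RNA, fewer cells of a type and less of a miRNA per cell cannot be told apart, and the part of other cells in the changes was not tested.

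The miR-7 family, abundant in neurons and neuroendocrine cells and bound by the circular RNA Cdr1as, rose most clearly. MiR-7a-5p stood at 5872, 7425, 6645 and 6998 CPM in the 4 empty-vector libraries and at 18969.6, 19746, 20912 and 18814 CPM in the 4 shRNA libraries. Every shRNA library lay above every empty-vector library, and the change was 1.54 ± 0.062 (adjusted p = 3.03e-18, 95% interval 1.42 to 1.67). MiR-7b-5p stood at 1298, 1418, 1483 and 1309 CPM and at 5499, 5597, 5863 and 5438 CPM, again without overlap, and the change was 2.02 ± 0.063 (adjusted p = 6.15e-21, 95% interval 1.90 to 2.15). Because reads of these 2 can be confused, their counts were also summed over the shared seed, and the sum rose from 8139.9 ± 722 to 24777 ± 1020.4 CPM (1.61 ± 0.059, adjusted p = 6.86e-20). As a share of all counts, the sum went from 0.736% to 2.52%.

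The opposite arms of the miR-7 hairpins did not pass the test. MiR-7a-5p is made from Mir7-1 (chr13:58392779-58392886 on GRCm38, minus strand, in an intron of Hnrnpk) and from Mir7-2 (chr7:78888277-78888373, plus strand), and each hairpin has its own 3p arm. MiR-7a-2-3p stood at 59, 62.8, 59.4 and 53.6 CPM with the empty vector and at 64.7, 65.5, 66.1 and 58.3 CPM with shRNA, so the groups overlapped (0.12 ± 0.117, adjusted p = 0.478, 95% interval -0.12 to 0.36). MiR-7a-1-3p stood at 22.1, 12.7, 13.2 and 13.9 CPM and at 15.5, 20.6, 18.6 and 18.9 CPM, and its groups overlapped too (0.26 ± 0.175, adjusted p = 0.275). The ratio of miR-7a-5p to each 3p arm was then tested with limma on log2 ratios of counts with a pseudocount of 0.5, in a set of 25 pairs chosen after the values were seen. These 25 were fitted, and their p-values adjusted, together with the 117 arm pairs described below. The ratio rose by 1.43 ± 0.144, adjusted p = 3.34e-08, over miR-7a-2-3p and by 1.27 ± 0.207, adjusted p = 4.32e-05, over miR-7a-1-3p. Both ratios still passed the test when any 1 of the 8 libraries was left out. MiR-7b-5p comes from Mir7b (chr17:56242988-56243098, plus strand), whose 3p arm had 2 to 26 counts per library with the empty vector and 7 to 19 with shRNA and was not tested.

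MiR-132 and miR-212, induced by neuronal activity through CREB and known for roles in dendrite growth, are neighbours on chromosome 11. The hairpins are Mir212 at chr11:75173388-75173478 and Mir132 at chr11:75173682-75173747, on the plus strand in an intron of the noncoding transcript 1700016P03Rik. All 4 of their tested arms rose, where 19.7% of all miRNAs rose. MiR-132-3p stood at 987, 814, 903 and 841 CPM with the empty vector and at 1742, 1794, 1706 and 1620.0 CPM with shRNA, without overlap (0.95 ± 0.067, adjusted p = 3.59e-12). MiR-212-3p stood at 46.6, 31.8, 42.7 and 38.8 CPM and 73, 79.4, 71.3 and 75.5 CPM, also without overlap (0.92 ± 0.122, adjusted p = 6.51e-07). The 5p arms rose less, miR-132-5p by 0.57 ± 0.063 (adjusted p = 2.77e-08) and miR-212-5p by 0.19 ± 0.074 (adjusted p = 0.0441). For miR-212-5p the groups overlapped, at 738, 712, 715 and 609.6 CPM and 802, 842, 809 and 716 CPM, and its call was lost under 5 of the alternatives, among them the fit without Empty_Vector replicate 4 (0.10).

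**Figure D1:**
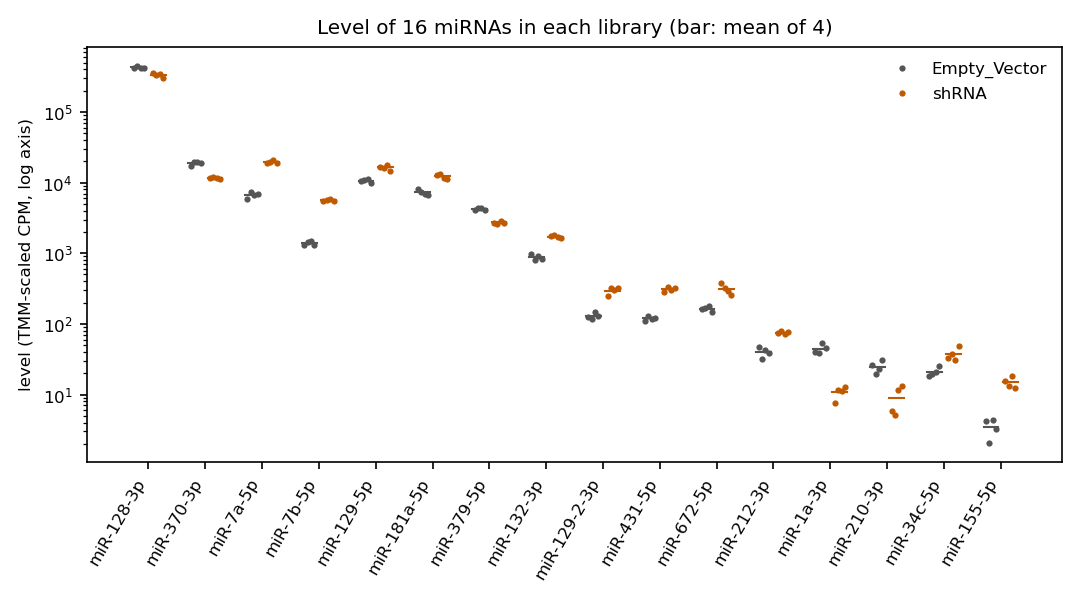
The level of 16 miRNAs (CPM, log axis) is plotted for each of the 4 Empty_Vector and 4 shRNA libraries, with a bar at each group's mean. The 16 were chosen with their values known, and the groups do not overlap for any of them, against 32.9% of all tested miRNAs. The level spans from miR-128-3p, at 299955 CPM or more in every library, to miR-155-5p, below 20 CPM in every library.

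Other miRNAs known from neurons moved in both directions. Of 46 names on the list of neuron-enriched miRNAs, 38 were tested, 12 rose and 4 fell, a share of 42.1% against 34.8% over all miRNAs. The median change of the list was 0.12 against 0.04 over all miRNAs. That median was 0.030 without Empty_Vector replicate 4, 0.21 and 0.19 without Empty_Vector replicate 2 and 3, 0.22 without shRNA replicate 2 and 0.26 with library totals alone, where 18 rose and 2 fell. The falls were also 2 without Empty_Vector replicate 2 or without shRNA replicate 1, 2 or 3. MiR-129-5p, made from 2 hairpins, stood at 10669.8, 10716, 11182 and 9982 CPM with the empty vector and at 16854, 16303, 17986 and 14677 CPM with shRNA, without overlap (0.63 ± 0.067, adjusted p = 1.39e-08). MiR-129-2-3p, the opposite arm of Mir129-2 (chr2:94241364-94241453, minus strand), stood at 124, 117, 148 and 130.4 CPM and 252, 319, 299 and 317 CPM (1.20 ± 0.109, adjusted p = 3.68e-09). The libraries with shRNA were all above the others for both arms, and the 3p arm moved further. MiR-129-1-3p, from the other hairpin, rose by 0.65 ± 0.172 (adjusted p = 0.00468), with 1 empty-vector library at 53.0 CPM inside the shRNA range of 52.8 to 61.0 CPM. The brain-specific miR-124-3p rose from 1661 ± 147 to 2249 ± 126 CPM (0.44 ± 0.070, adjusted p = 1.19e-05) and miR-153-3p, which targets synaptic vesicle genes, from 14.8 ± 1.51 to 27.2 ± 3.09 CPM (0.85 ± 0.167, adjusted p = 0.000173). Among the 4 falls, miR-139-3p fell by 0.69 (SE 0.102, adjusted p = 3.74e-06) and miR-218-5p, linked to motor neurons, lost its call when any 1 of the 4 shRNA libraries was left out, without Empty_Vector replicate 2, 3 or 4, or with library totals alone.

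The most abundant miRNA, miR-128-3p, which restrains neuronal excitability, fell. It comes from Mir128-1 (chr1:128202361-128202430, in an intron of R3hdm1) and Mir128-2 (chr9:112118636-112118711, in an intron of Arpp21). Its level was 419640.0, 449163, 421055 and 418175 CPM with the empty vector and 352520.0, 330128, 341891 and 299955 CPM with shRNA. The groups did not overlap, and the fall was 0.37 on the log2 scale (SE 0.065, adjusted p = 4.84e-05). The 10 most abundant miRNAs together held 73.2 ± 0.262% of the counts with the empty vector (range 73.0 to 73.6%) and 69.3 ± 0.707% with shRNA (68.5 to 70.2%), without overlap (exact two-sided permutation test, p = 0.0286, the smallest that 4 against 4 allows). That test treated the libraries as unpaired, and a paired form was not run. The sum includes miR-128-3p, and the share of the others without it was not tested. Of these 10, 3 passed the test and all 3 fell, namely miR-128-3p, miR-99a-5p (-0.18, adjusted p = 0.00338) and miR-127-3p (-0.50, adjusted p = 2.02e-07). Over all miRNAs 34.8% were called and 15.1% fell, and above 1000 CPM 65.2% were called. With library totals alone miR-99a-5p stood at -0.04 and did not pass. MiR-9-5p, which acts in neural progenitors and neurons, was at 71133 ± 1925 and 70727 ± 2600.4 CPM and its change was -0.01 ± 0.047 (adjusted p = 0.917, 95% interval -0.10 to 0.09). With library totals alone miR-9-5p stood at 0.14 (adjusted p = 0.0191).

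How often a change was called followed abundance. Below 10 CPM 14.9% of 134 miRNAs were called, from 10 to 100 CPM 31.6% of 174, from 100 to 1000 CPM 45.9% of 109 and above 1000 CPM 65.2% of 66. The median SE fell over the same classes from 0.286 to 0.059, so the precision differed between them. Rises were more frequent than falls below 10 CPM, 17 against 3, while above 1000 CPM 18 rose and 25 fell. Called changes of more than 2-fold were met by 9 miRNAs in the lowest class and by 2 in the highest, miR-7a-5p and miR-7b-5p.

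**Figure D2:**
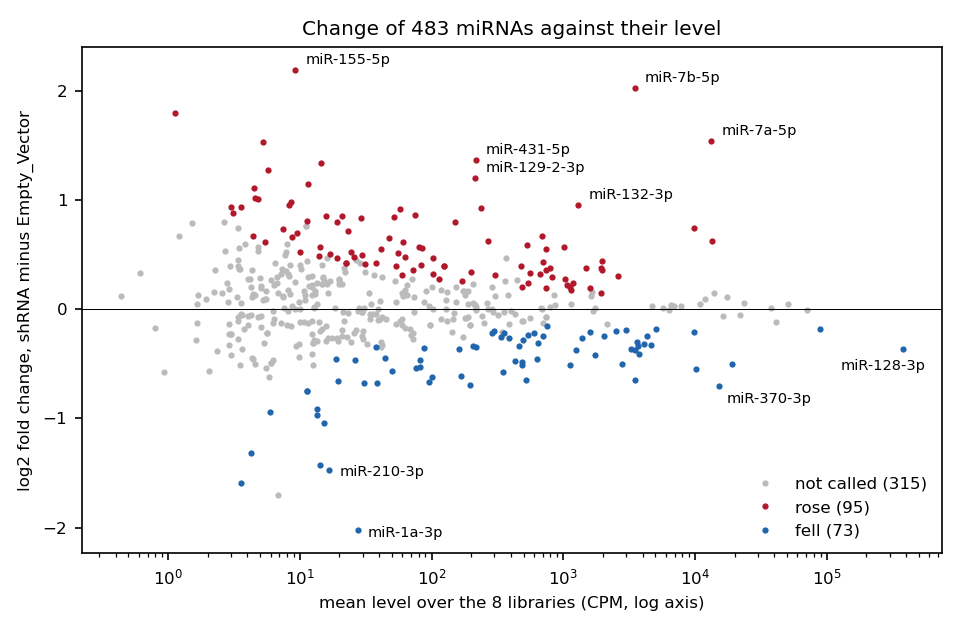
Each of the 483 tested miRNAs is a point, with its mean level over the 8 libraries (CPM, log axis) against its log2 fold change, shRNA minus Empty_Vector; colours mark the 95 that rose, the 73 that fell and the 315 not called. MiR-7a-5p and miR-7b-5p stand above 1 at more than 1000 CPM, and miR-128-3p is the point farthest to the right.

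Counts were summed over miRNAs with the same seed, which gave 411 seed groups, 46 of them with 2 or more tested members. The 56 tested miRNAs without a sequence entered no shared group. Of the 411, 32.4% changed, 15.6% rising and 16.8% falling. Among the 46, 13 rose and 6 fell. The miR-132 and miR-212 seed rose from 929 ± 79.5 to 1760.1 ± 77.1 CPM (0.92 ± 0.068, adjusted p = 2.9e-12), and miR-132-3p held most of it.

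The miR-181 seed, abundant in neurons and lymphocytes, rose from 15616 ± 1356 to 20376 ± 1643 CPM (0.38 ± 0.062, adjusted p = 9.52e-06), but its members did not move alike. MiR-181a-5p stood at 8123, 7427, 6961 and 6657 CPM with the empty vector and at 12978, 13203, 11565 and 11229.6 CPM with shRNA, without overlap (0.75 ± 0.065, adjusted p = 2.84e-10). MiR-181b-5p, which is made from the same 2 transcripts as miR-181a-5p, stood at 7226, 6502, 6067 and 5768 CPM and 6764, 6835, 5908 and 5930.3 CPM, with overlapping groups (-0.01 ± 0.067, adjusted p = 0.951, 95% interval -0.14 to 0.13). With library totals alone miR-181b-5p stood at 0.13 (adjusted p = 0.0988). The intervals of the 2 reported changes do not overlap, and a test of the difference was not run. MiR-181c-5p rose from 36.8 ± 6.91 to 66.6 ± 4.67 CPM (0.84 ± 0.140, adjusted p = 2.13e-05) and miR-181d-5p from 1848 ± 105 to 2054 ± 81.9 CPM (0.15 ± 0.055, adjusted p = 0.0327), the latter with overlapping groups.

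The seed of miR-29, known for collagen and DNA methyltransferase mRNAs as targets, rose from 439 ± 34.8 to 651 ± 63.6 CPM (0.57 ± 0.085, adjusted p = 3.05e-06). MiR-29a-3p carried the sum, at 405, 476, 407 and 417 CPM with the empty vector and 556, 721, 636 and 662 CPM with shRNA, without overlap. MiR-29b-3p stood at 10.6, 7.70, 5.18 and 5.41 CPM and 11.4, 11.6, 10.7 and 30.3 CPM, so 1 shRNA library lay far above the other 3. Its rise of 1.15 ± 0.383 (adjusted p = 0.0293) became 0.64 (adjusted p = 0.088) without shRNA replicate 4 and did not pass without Empty_Vector replicate 2, 3 or 4 either. MiR-29c-3p was at 4.07 ± 1.69 and 3.53 ± 1.18 CPM and did not pass (adjusted p = 0.72).

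The p53-induced miR-34b and miR-34c, from Mir34c and Mir34b on chromosome 9 (chr9:51103034-51103110 and chr9:51103562-51103645, minus strand), rose in all 3 arms placed there. Over all miRNAs 19.7% rose. MiR-34b-3p stood at 11.9, 15.7, 12 and 15.2 CPM with the empty vector and at 22.6, 27.4, 19.4 and 28.7 CPM with shRNA. MiR-34c-3p stood at 2.93, 2.29, 1.60 and 3.48 CPM and 7.30, 11.6, 5.96 and 7.17 CPM. Neither overlapped, and the changes were 0.80 ± 0.154 (adjusted p = 0.000135) and 1.53 ± 0.276 (adjusted p = 6.12e-05). MiR-34c-5p rose too, from 21 ± 2.95 to 37.8 ± 8.10 CPM (0.84 ± 0.172), while miR-34a-5p, from another chromosome, rose by 0.52 ± 0.187 (adjusted p = 0.0302) with overlapping groups.

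Smaller seed groups changed as follows. In the pair of miR-672-5p and miR-377-5p the sum rose by 0.87 ± 0.096 (adjusted p = 1.6e-08), while miR-377-5p stood at 5.38 ± 1.39 to 3.77 ± 0.558 CPM (-0.50 ± 0.239, adjusted p = 0.111). The miR-30 members with a sequence and 1 shared seed, miR-30a-5p, miR-30e-5p, miR-30c-5p and miR-384-5p, summed to a rise of 0.32 ± 0.057 (adjusted p = 3.85e-05). This sum leaves out miR-30b-5p and the most abundant miR-30 name, miR-30d-5p, which had no sequence. MiR-30d-5p was at 11639 ± 589 and 12394 ± 437 CPM and did not pass (0.09 ± 0.050, adjusted p = 0.178), while with library totals alone it stood at 0.23 (adjusted p = 0.000516). MiR-30b-5p rose by 0.40 ± 0.111 (adjusted p = 0.00469). The cell-cycle regulators miR-15b-5p, miR-16-5p, miR-195a-5p and miR-497a-5p summed to a rise of 0.33 ± 0.081 (adjusted p = 0.00153). The 3 members of the miR-99 and miR-100 seed, whose known targets include Mtor, all fell, where 15.1% of all miRNAs fell. Their sum went from 104496 ± 5080.2 to 89382 ± 2320.3 CPM (-0.23 ± 0.046, adjusted p = 0.000233). But it stood at -0.05 (adjusted p = 0.397) when libraries were scaled by their totals alone. The let-7 seed, with 10 tested members and known to accumulate in differentiated cells, was at 195748 ± 9772 and 192339 ± 14543 CPM and did not pass (-0.03 ± 0.053, adjusted p = 0.771), but with library totals alone it stood at 0.14 (adjusted p = 0.00918).

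**Figure D3:**
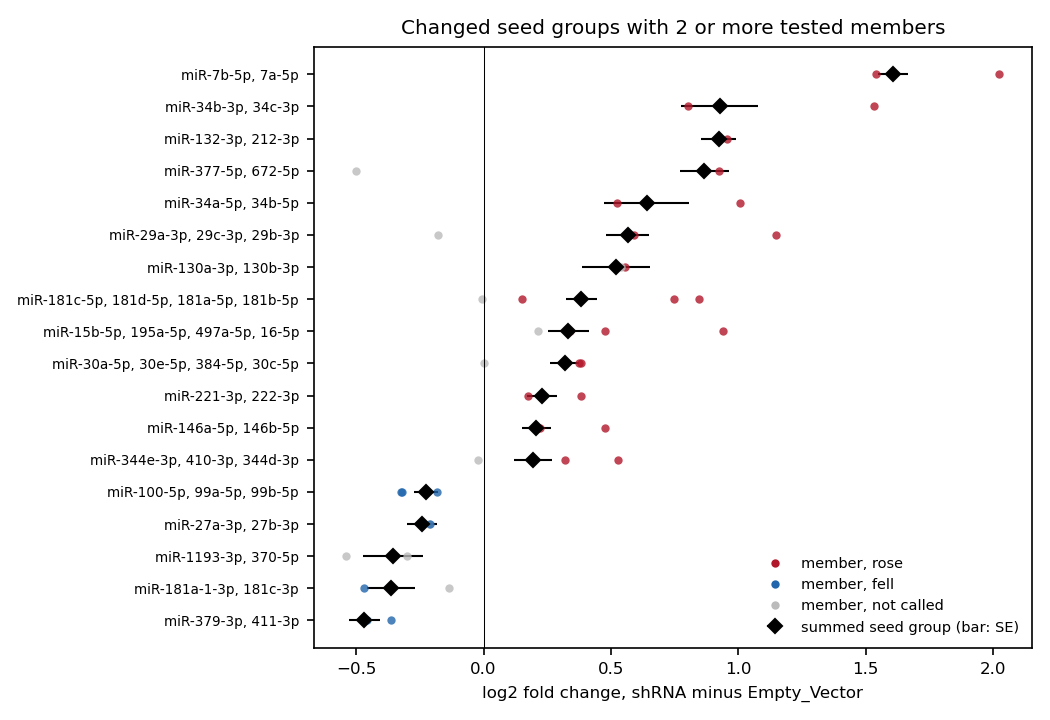
The 18 changed seed groups with 2 or more tested members (miR-299a-3p with miR-299b-3p left out, since their counts are identical) are listed against log2 fold change, shRNA minus Empty_Vector; diamonds are the summed counts with SE bars and dots are the members. The miR-7 group stands at 1.61, and in the miR-181 group the members spread from -0.01 to 0.84.

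The 2 arms of a hairpin come from the same precursor, so their ratio within a library does not depend on how libraries are scaled. Both arms were tested in 117 hairpins under 1 name. In 7 of them both arms rose, in 10 both fell, in 53 a single arm was called and in 46 neither. The remaining hairpin, miR-361, had 1 arm rising and the other falling. Pearson's r between the changes of the 5p and the 3p arm was 0.515 across the 117 hairpins and 0.494 across the 76 with both arms at 10 CPM or more, as a description, since both arms share the libraries.

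The log2 ratio of 5p to 3p counts changed in 16 hairpins, 13.7% of the 117, with 8 (6.84%) toward the 5p arm and 8 (6.84%) toward the 3p arm. The groups did not overlap in 13 of the 16, but they also did not overlap for ratios that were not called, such as those of miR-379, let-7b and miR-770. In 7 of the 16 the ratio moved toward the arm that was more abundant with the empty vector and in 9 toward the scarcer arm. The count was 30 when only the 8 libraries were fitted and 9 without Empty_Vector replicate 2. Ratios of 8 hairpins, namely miR-181c, miR-361, miR-431, miR-132, miR-153, miR-212, miR-139 and miR-376b, passed under all 13 alternatives run on them, and the other 8 did not pass under at least 4.

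For miR-181c the log2 ratio was -0.52, -0.70, -0.69 and -0.57 with the empty vector and 0.36, 0.55, 0.43 and 0.18 with shRNA, so the 3p arm held more counts in each empty-vector library and the 5p arm in each shRNA library. The change was 1.00 ± 0.157 (adjusted p = 2.45e-05), and the share of the 5p arm went from 39.4% to 56.5%. For miR-431 the log2 ratio was 0.31, 0.47, 0.82 and 0.47 and 1.61, 1.74, 1.68 and 1.73, without overlap (1.17 ± 0.177, adjusted p = 2.45e-05). MiR-431-5p rose while miR-431-3p, at 84.7 ± 12 to 96.2 ± 3.73 CPM, did not pass (0.17 ± 0.116, adjusted p = 0.274), but with library totals alone it stood at 0.32 (adjusted p = 0.0444). For miR-361 the share of the 5p arm went from 18.3% to 26.5% (0.69 ± 0.108, adjusted p = 2.45e-05), with miR-361-5p rising by 0.47 ± 0.093 and miR-361-3p falling by 0.22 (SE 0.071, adjusted p = 0.016). The fall of miR-361-3p did not pass without Empty_Vector replicate 1, 2 or 3, without shRNA replicate 1, 3 or 4, or with library totals alone.

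Other ratios moved toward the 3p arm. For miR-153 the log2 ratio was 1.31, 1.25, 1.22 and 1.19 with the empty vector and 0.34, 0.47, 0.15 and 0.24 with shRNA, and the groups did not overlap (-0.94 ± 0.197, adjusted p = 0.00109). For miR-212 and miR-132, where both arms rose, the changes were -0.72 ± 0.156 (adjusted p = 0.00135) and -0.38 ± 0.079 (adjusted p = 0.00109). The ratio of miR-129-5p to miR-129-2-3p changed by -0.56 ± 0.117, adjusted p = 0.000951. Among the 25 numbered pairs 6 passed. Of these, miR-30c-5p over miR-30c-1-3p passed in 2 of the 8 fits that left out 1 library (highest adjusted p = 0.157), and the other 5 passed in all 8. MiR-181a-5p rose against both of its partners, by 1.21 ± 0.133, adjusted p = 9.16e-08, over miR-181a-1-3p and by 0.76 ± 0.174, adjusted p = 0.00204, over miR-181a-2-3p. MiR-181a-1-3p itself fell from 95 ± 9.77 to 68.9 ± 8.53 CPM (-0.47 ± 0.107, adjusted p = 0.000887). A 5p arm made from 2 hairpins cannot be assigned to either, so these ratios mix both sources.

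**Figure D4:**
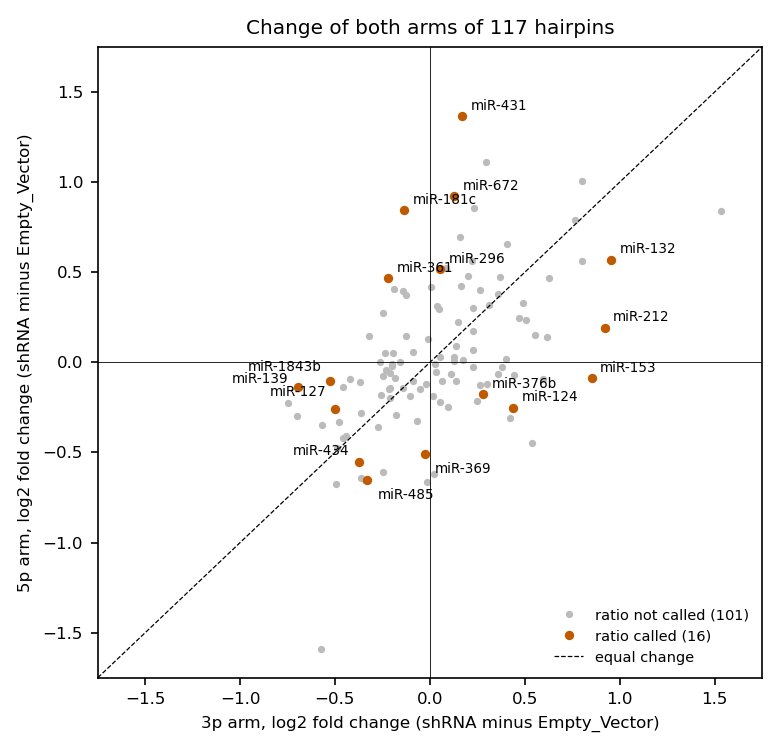
Each point is 1 of 117 hairpins, with the log2 fold change (shRNA minus Empty_Vector) of its 3p arm on the horizontal axis and of its 5p arm on the vertical axis; the dashed line marks equal change. The 16 hairpins with a changed ratio are named, and miR-431, miR-181c and miR-672 lie farthest above the line among them, miR-153 farthest below.

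The imprinted Dlk1-Dio3 region on chromosome 12 makes most of its miRNAs from the maternal chromosome, in long noncoding transcripts named Meg3, anti-Rtl1, Rian and Mirg, and they act in growth and in synaptic scaling. On the plus strand, 75 tested names from 46 precursors were placed over 180 kb, and 34 fell while 5 rose (median -0.33, against 0.04 over all tested miRNAs). Lists by transcript held 82 tested names, 7 of them in the Mirg part without a placed hairpin, and miR-299a and miR-299b, whose counts are identical, enter as separate names. By these lists, the Rian part had 4 falls and no rise in edgeR among 5 tested names (median -0.70; 0 rises at an unadjusted p below 0.05 or with DESeq2), the Mirg part 24 falls and 3 rises among 57 (median -0.31), the anti-Rtl1 part 5 falls and 1 rise among 10 (median -0.27) and the Meg3 side 4 falls and 1 rise among 10 (median -0.12). Over all miRNAs 15.1% fell and 19.7% rose. With library totals alone the medians were -0.56, -0.16, -0.13 and 0.02 in the same order, so the sign of the Meg3 side turned. The median of the anti-Rtl1 part was -0.16 without shRNA replicate 3. The median of the Meg3 side was -0.027 without Empty_Vector replicate 3, -0.037 without shRNA replicate 2 and -0.057 without shRNA replicate 3, and its rise did not pass without Empty_Vector replicate 4.

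In the Rian part, miR-370-3p from Mir370 (chr12:109618258-109618336, in an intron of Rian) was the most abundant, at 17336, 19505, 19547 and 18643 CPM with the empty vector and 11745, 11818, 11519.6 and 11063 CPM with shRNA. All shRNA libraries lay below all others, and it fell by 0.70 (SE 0.052, adjusted p = 1.04e-11). MiR-1188-5p went from 20.7 ± 1.81 to 7.61 ± 1.76 CPM, a fall of 1.43 without overlap (SE 0.193, adjusted p = 9.25e-07). MiR-341-5p fell from 5.29 ± 1.43 to 1.81 ± 0.373 CPM and miR-341-3p from 417 ± 30.7 to 281 ± 21.2 CPM, by 1.59 (SE 0.281) and 0.57 (SE 0.075).

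In the anti-Rtl1 part, whose miRNAs pair perfectly with the Rtl1 mRNA, miR-431-5p went the other way. It comes from Mir431 (chr12:109590447-109590537) and stood at 111, 130.0, 118 and 122 CPM with the empty vector and at 282, 338, 301 and 325 CPM with shRNA, without overlap (1.37 ± 0.093, adjusted p = 2e-12). From the same transcript, miR-127-3p stood at 23936, 23887, 22588 and 19530.4 CPM and 14903, 16233, 16244 and 16123 CPM and fell by 0.50 (SE 0.062, adjusted p = 2.02e-07). MiR-434-5p fell from 12165 ± 925 to 8307 ± 413 CPM.

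In the Mirg part, miR-379-5p, the first miRNA of its largest cluster, stood at 4099.6, 4405, 4398 and 4132 CPM and 2702, 2633, 2897 and 2674 CPM and fell by 0.64 (SE 0.055, adjusted p = 1.86e-10). MiR-485-5p, known for synaptic targets, fell from 640.4 ± 68.1 to 407 ± 43 CPM (adjusted p = 4.24e-06). Rises were those of miR-668-3p, from 109 ± 10.9 to 191 ± 19 CPM (0.80 ± 0.098), miR-495-3p (0.36 ± 0.069) and miR-376b-3p (0.28 ± 0.083). The call of miR-376b-3p was lost without shRNA replicate 4 (0.21).

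**Figure D5:**
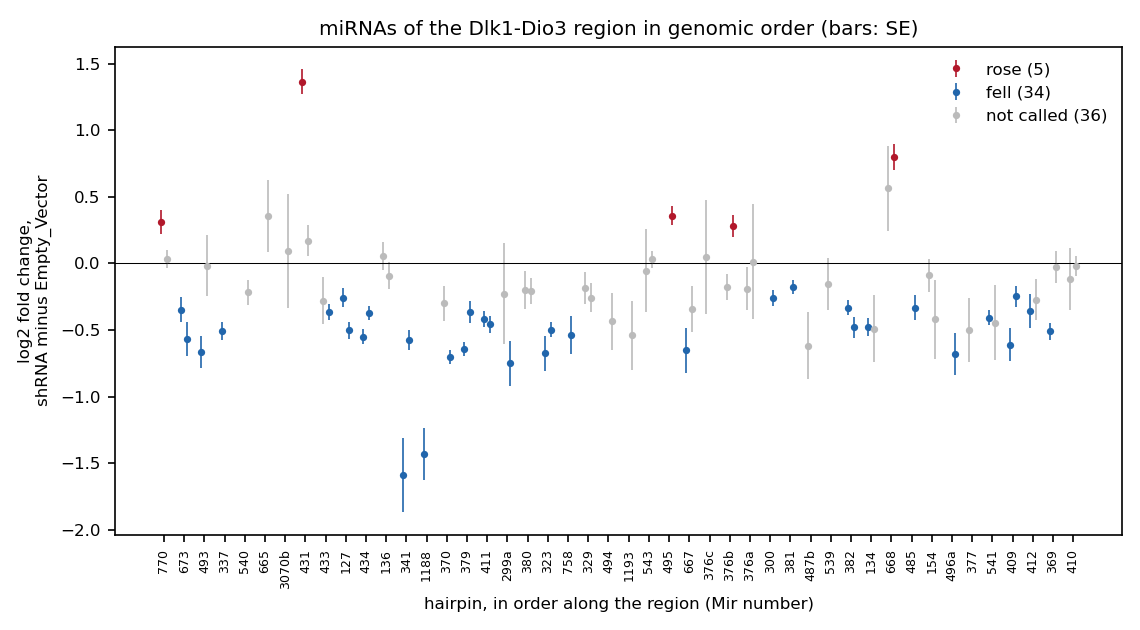
The log2 fold change (shRNA minus Empty_Vector, bars are SE) of 75 tested miRNAs is plotted by hairpin in order along the Dlk1-Dio3 region; red points rose (5), blue points fell (34) and grey points were not called (36). Falls occur along the whole region, with miR-341-5p and miR-1188-5p lowest, and miR-431-5p stands alone above 1.

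Outside the Dlk1-Dio3 region, 5 other falls are given among miRNAs of at least 10 CPM without overlap. Muscle-type miR-1a-3p stood at 39.9, 38.1, 53.4 and 44.9 CPM with the empty vector and at 7.69, 11.4, 11.2 and 12.8 CPM with shRNA, without overlap, a fall of 2.02 (SE 0.160, adjusted p = 3.82e-11). Hypoxia-induced miR-210-3p stood at 26.1, 19.4, 22.7 and 30.3 CPM and 5.77, 5.14, 11.7 and 13.1 CPM, a fall of 1.47 (SE 0.246, adjusted p = 5.14e-05). MiR-375-3p, known from islet and neuroendocrine cells, stood at 21.4, 19.97, 21.9 and 18.6 CPM and 9.48, 9.34, 10.3 and 10.3 CPM, a fall of 1.04 (SE 0.152, adjusted p = 3.46e-06). The groups did not overlap for any of the 3. MiR-184-3p and miR-1306-3p fell by 0.97 (SE 0.191) and 0.91 (SE 0.188), from 17.8 ± 2.64 to 9.04 ± 1.64 CPM and from 17.6 ± 2.65 to 9.36 ± 1.06 CPM. Below 10 CPM, miR-3078-5p fell by 1.31 (SE 0.323, adjusted p = 0.00184).

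Among the remaining rises, miR-672-5p, from an intron of Nexmif (chrX:104116175-104116274, minus strand), stood at 163, 169, 179.9 and 147 CPM with the empty vector and at 375, 323, 289 and 257 CPM with shRNA, without overlap (0.92 ± 0.098, adjusted p = 1.39e-08). MiR-6944-3p rose from 52.7 ± 4.47 to 96 ± 6.08 CPM (0.86 ± 0.108, adjusted p = 2.5e-07) and miR-339-5p from 11.1 ± 1.88 to 20.7 ± 2.72 CPM (0.86 ± 0.172, adjusted p = 0.000231). Among the 395 tested miRNAs with a position, those of 3 hairpins lie in introns of Htr2c, the serotonin receptor 2C gene. This group was chosen after its values were seen, and tested miRNAs without a position could not be placed in it. Of these, miR-448-3p (chrX:147158210-147158321) stood at 4.51, 7.49, 8.38 and 11.4 CPM and 15.8, 19.2, 25.4 and 22.8 CPM (1.34 ± 0.229, adjusted p = 3.48e-05) and miR-764-5p (chrX:147002259-147002366) at 1.35, 4.06, 3.99 and 3.67 CPM and 5.77, 10.9, 7.88 and 8.42 CPM (1.27 ± 0.269, adjusted p = 0.000399). Neither overlapped, while miR-1298-3p and miR-1298-5p did not pass (adjusted p = 0.189 and 0.311).

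Inflammation-linked miR-155-5p, from an exon of Mir155hg (chr16:84714140-84714204), had the largest rise of all miRNAs that passed. It stood at 4.28, 2.08, 4.39 and 3.29 CPM with the empty vector and at 15.6, 13.3, 18.4 and 12.5 CPM with shRNA, without overlap (2.19 ± 0.263, adjusted p = 1.35e-07). The detection floor, 3 counts, was 0.269 to 1.09 CPM in the empty-vector libraries and covers counting error only, and each of the 4 values lay above its own floor. MiR-146a-5p, induced by NF-kB, rose from 52.6 ± 5.39 to 73.7 ± 14.6 CPM (0.48 ± 0.122, adjusted p = 0.00264), also without overlap. They were the 2 tested names of a list of 6 microglia and leukocyte markers, whose tested members summed to 51.0 to 61.3 CPM and 77.8 to 106 CPM. Of the other 4, miR-142a-3p and miR-223-3p had 0 counts in all 8 libraries, and miR-142a-5p had 2 and 3 counts in all and miR-150-5p 2 and 0. Which cells the rises came from was not tested.

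MiRNAs made without Drosha, such as mirtrons, are cut from short introns or transcripts and still need Dicer in most cases. Of 7 tested, 4 rose and none fell in edgeR (57.1% against 34.8% over all miRNAs, median 0.24 against 0.04), but 1 rose without Empty_Vector replicate 4. With DESeq2 3 rose and 0 fell, and 0 were lower at an unadjusted p below 0.05. The summed level of the 7 was 1393 to 1473 CPM with the empty vector and 1688 to 1779.6 CPM with shRNA.

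The mutated hairpins were each compared with the same 4 empty-vector libraries, so the comparisons share them, and their libraries held 831859 to 2496036 counts. Only a few of the miRNAs described above are given here, chosen with earlier results known. Changes with the mutated hairpins against the empty vector are printed without SE or test result. MiR-7b-5p, at 2.02 with shRNA, stood at -0.94 with shRNA_2bp and 1.43 with shRNA_5bp, and each mutated hairpin differed from shRNA itself (-2.97 ± 0.066, adjusted p = 7.88e-25, and -0.59 ± 0.061, adjusted p = 2.6e-09). MiR-7a-5p, at 1.54 with shRNA, stood at -0.45 and 1.94, so with shRNA_5bp it was higher than with shRNA (0.40 ± 0.060, adjusted p = 2.24e-06). MiR-155-5p, at 2.19 with shRNA, stood at -0.01 and -0.11, and shRNA differed from both (-2.20 ± 0.343, adjusted p = 2.29e-06, and -2.30 ± 0.361, adjusted p = 3.58e-06). At that level the smaller of these libraries hold few miR-155-5p counts, so its values with the mutated hairpins lie near the detection floor. MiR-6944-3p, at 0.86 with shRNA, stood at -0.80 and -0.62, so these estimates lay on the other side of the empty vector. MiR-672-5p stood at 0.92, 0.88 and 0.94 with the 3 hairpins, and the differences from shRNA did not pass (-0.05 ± 0.10, adjusted p = 0.691, and 0.02 ± 0.10, adjusted p = 0.928).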

How the data were processed

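Small RNA libraries were prepared from 100 ng of total RNA with 15 PCR cycles and size selection, per the labels' protocols. The authors deposited raw read counts per mature mouse miRNA. The submitters' processing notes name bcl2fastq 2.20.0.422, Trim Galore 0.6.0, cutadapt 1.15, Bowtie 1.1.1, edgeR and the build GRCm38.p6, without saying which step each served. Reads were counted without molecular identifiers, so floors cover counting error only.

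All 16 libraries were fitted together with edgeR 4.0.16 under R 4.3.3 (filterByExpr, TMM scaling by the trimmed mean of M values, robust quasi-likelihood F test, 1 coefficient per group, 12 residual degrees of freedom). P-values were adjusted over all 483 miRNAs, over 411 seed groups (counts summed by bases 2 to 8; a miRNA without a sequence is its own group), or over 117 arm pairs tested in limma 3.58.1 on log2 ratios with a pseudocount of 0.5. The 25 numbered pairs were fitted and adjusted together with these 117. The scripts were tested on simulated data. DESeq2 1.42.0 was an alternative. Sequences and positions came from RefSeq on GRCm38.p6 and host genes from GENCODE M21. No replicate pair differed by as little as sampling noise.

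The miRNAs described were drawn mainly from the sets that follow, and not every member is printed. The sets include the 15 largest rises and 15 largest falls among changed miRNAs of at least 10 CPM whose groups do not overlap. Further sets are the 10 most abundant, up to 4 changed members of each list and the 10 arm pairs and seed groups of smallest p. Partner arms and seed mates of these were added. MiR-299a-3p and miR-299b-3p are not described, because their counts are identical. Members and lists were chosen with earlier results of these data known.

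Replicate numbers are shared between the groups. After removal of group means, same-numbered libraries correlated at 0.103, 0.115, 0.235 and 0.360 over 349 miRNAs, and 8 of 8 correlated best with their own number. Each exceeded the threshold of 0.1, so a fit with the replicate as a block was read as a paired alternative.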

Additional observations from a re-analysis of the deposited data

Results flagged for a closer look

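A library far from the other 3 of its group was looked for in 102 groups of 4 values, where chance marks about 1 in 20, and 4 were found. MiR-29b-3p stood at 30.26 CPM in shRNA replicate 4, against 10.69 to 11.62 in the others. MiR-128-3p stood at 449200 CPM in Empty_Vector replicate 2, against 418200 to 421100. Let-7i-5p stood at 40350 CPM in 1 empty-vector library, against 43430 to 43770. MiR-127-3p stood at 14900 CPM in shRNA replicate 1, against 16120 to 16240.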

How the results depend on the processing

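With the replicate block, which treats same-numbered libraries as pairs, 185 miRNAs changed (106 rose and 79 fell) instead of 168, 153 seed groups instead of 133 and 21 arm ratios instead of 16. It shared 167 of the 168 calls, and it ended the call of no named miRNA. Scaling by library totals alone moved the counts most: 149 miRNAs rose and 44 fell, and 115 seed groups rose and 40 fell, against 64 and 69. The share of rises was 77.2% there and 56.5% as reported, 49.4% with DESeq2-type size factors, 47.3% with DESeq2 and 47.1% among miRNAs of at least 10 CPM. Without Empty_Vector replicate 4 it was 46.7%, and without shRNA replicate 2 it was 69.6%. Leaving out each library in turn gave 145 to 165 changed miRNAs and 118 to 136 seed groups.

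Arm ratios depended most on the fit. Only the 8 libraries of the comparison gave 30 changed ratios, 16 toward the 5p arm and 14 toward the 3p arm. Leaving out each library gave 9 to 16, with 4 to 8 toward each arm. Adding numbered partner arms, an alternative chosen after seeing the data, gave 13 toward the 5p arm. The causes were not tested. Among the named miRNAs and the members of the lists and named arm pairs, none that was called changed sign. The sign of other called miRNAs was not followed where their call was lost. Arms not called crossed zero with library totals alone, miR-139-5p to 0.0062, miR-153-5p to 0.055, miR-181c-3p to 0.013 and miR-1843b-5p to 0.037, as did miR-9-5p, miR-181b-5p and the let-7 seed, whose values stand in the report, and miR-181a-2-3p to 0.11. MiR-153-5p also did so without shRNA replicate 1 and miR-181c-3p without shRNA replicate 2, and their values over the libraries left out ran from -0.12 to 0.014 and from -0.23 to 0.0065. Below 10 CPM the median SE was 0.286, so small changes of scarce miRNAs were not detectable at this depth.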
